A study of Homo sapiens with 3 samples.

Results

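The proteasome subunit genes were examined in LvM3b, a human colon adenocarcinoma cell line. The members are the probes whose target symbol is PSMA, PSMB, PSMC, PSMD, PSME, PSMF or PSMG followed by a number. There were 73 such probes of 46 genes among 48803 probes on the array, and 62 probes of 44 genes were detected in at least 1 array. PSMA7 and PSMA8 had no detected probe, no probe carried the symbol PSMB11 or PSMG4, and the 4 probes of PSMC3IP and PSMAL were left out because letters follow their family name. The core, meaning PSMA and PSMB1 to PSMB7, had 13 measured genes of 15. The regulatory cap, meaning PSMC and PSMD, had 20 of 20. The interferon-inducible set, PSMB8, PSMB9, PSMB10, PSME1 and PSME2, had 5 of 5. The other 6 measured members were PSME3, PSME4, PSMF1, PSMG1, PSMG2 and PSMG3.

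The study set LvM3b cells overexpressing miR-483-5p (named miR-483 in the sample labels) and LvM3b cells overexpressing miR-551a beside control LvM3b cells, to find genes that these microRNAs suppress. Total RNA from each culture was labelled and hybridised to 1 Illumina bead array per group. No group had a replicate, so every difference below is between 2 cultures, has no error and no test. How overexpression was brought about, and what the control cells carried, is not stated by the labels. A normalized table was deposited as well, but its values headed miR-483 are those of the miR-551a array times a constant, so only the non-normalized intensities were used. Median intensity was 84.9 for control, 88.0 with miR-483-5p and 87.7 with miR-551a, and 27.2% to 28.5% of probes were detected. Of 8 markers of colon epithelium, 7 were detected in each array (CDH1, CDX1, CDX2, GPA33, LGALS4, VIL1 and EPCAM, listed as TACSTD1) and KRT20 was not. Of 6 leukocyte markers only LYZ and CD68 were detected, not PTPRC, CD3D, CD3E or CD14. SERPINA1 was the only one of 5 hepatocyte markers detected, and of 6 fibroblast markers COL3A1 and LUM were, 1 in the control, 2 with miR-483-5p and 1 with miR-551a, while 0 of 4 endothelial and 0 of 2 erythroid markers with a probe were detected. The summed intensity of the 6 leukocyte markers was 1016 in the control, 1381 with miR-483-5p and 1136 with miR-551a; its part in the immunoproteasome values below was not tested.

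The proteasome degrades proteins tagged with ubiquitin. Its core is a barrel of alpha and beta rings whose beta subunits PSMB5, PSMB6 and PSMB7 cut the substrate inside. The cap binds ubiquitin chains, removes them and unfolds the protein with a ring of PSMC ATPases. Interferon replaces the cutting subunits by PSMB8, PSMB9 and PSMB10, which form the immunoproteasome, and induces PSME1 and PSME2, an alternative activator that together with them shapes peptides for MHC class I. PSME3 and PSME4 are nuclear activators that work without ubiquitin.

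A few sequences are shown for the members on which the results turn. The mature microRNA of 1 overexpressing culture is given with its seed (bases 2 to 8) in capitals, as listed by RefSeq on GRCh38.p14 at chr1:3560710-3560730, minus strand.
hsa-miR-551a: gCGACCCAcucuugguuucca
The promoters of PSME3 (chr17:42833147-42833446, plus strand), the member furthest above control, of PSME2 (chr14:24146561-24146860, minus strand), the member furthest below it, and of PSMB10 (chr16:67936801-67937100, minus strand), an interferon-inducible member that was higher than control, run from 250 bases before to 50 bases after the transcription start in RefSeq, GRCh38.p14. Capitals mark matches, on either strand, to an antioxidant response element (TGACNNNGC), a CCAAT box (CCAAT), an interferon-stimulated response element (GAAA, any 2 bases, GAAA) or a gamma-activated site (TTCNNNGAA).
PSME3: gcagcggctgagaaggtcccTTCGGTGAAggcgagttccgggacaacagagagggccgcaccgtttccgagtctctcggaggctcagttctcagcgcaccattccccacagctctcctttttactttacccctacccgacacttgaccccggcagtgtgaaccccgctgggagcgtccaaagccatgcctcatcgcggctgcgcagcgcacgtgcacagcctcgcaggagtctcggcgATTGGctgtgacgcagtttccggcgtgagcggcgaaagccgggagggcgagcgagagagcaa
PSME2: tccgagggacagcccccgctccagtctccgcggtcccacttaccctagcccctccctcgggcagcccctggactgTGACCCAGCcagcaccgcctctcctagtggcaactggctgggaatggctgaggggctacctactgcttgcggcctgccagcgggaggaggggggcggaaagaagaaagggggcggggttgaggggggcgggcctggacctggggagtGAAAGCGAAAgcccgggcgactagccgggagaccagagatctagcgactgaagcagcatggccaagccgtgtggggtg
PSMB10: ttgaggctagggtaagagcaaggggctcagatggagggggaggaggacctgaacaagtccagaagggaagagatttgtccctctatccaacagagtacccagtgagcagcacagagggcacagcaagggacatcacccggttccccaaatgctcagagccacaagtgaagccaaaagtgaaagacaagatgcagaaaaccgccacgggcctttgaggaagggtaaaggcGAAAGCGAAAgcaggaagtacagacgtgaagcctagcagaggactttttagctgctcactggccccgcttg
PSME2 and PSMB10 hold the same 10 letters, GAAAGCGAAA, beginning 28 and 21 bases before the start. PSME3 holds no interferon-stimulated element and no antioxidant element in this window, but a CCAAT box beginning 12 bases and a gamma-activated site beginning 230 bases before the start.

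PSME3, the gene of the nuclear activator PA28 gamma, was the member furthest from control in both overexpressing arrays. Its first probe had an intensity of 640.6 in the control, 1172.2 with miR-483-5p and 1426.4 with miR-551a. Its other probe read 655.5, 1192.1 and 1194.1. Both overexpressing arrays lay above control at both probes. After background correction and quantile normalization, the mean difference on the log2 scale was 0.87 (1.83-fold higher) with miR-483-5p and 0.95 (1.93-fold higher) with miR-551a. Of 11151 measured genes, 0.789% and 1.12% were at least as high in these comparisons. A single probe passed 2-fold, with a log2 difference of 1.10 for miR-551a, where the other probe differed by 0.80; for miR-483-5p the probes differed by 0.88 and 0.87. Both values rest on the same control array, so they are not separate observations. In RNA from whole cultures, a change in the share of cells expressing a gene and a change in RNA per cell cannot be told apart. Without the control, PSME3 differed by -0.08 between the miR-483-5p and miR-551a arrays. PSME4, the gene of the activator PA200, had intensities of 1452.4 in control, 1801.9 in miR-483-5p and 1840 in miR-551a, differences of 0.24 and 0.19. PSMF1, which encodes the proteasome inhibitor PI31, read 2049.8, 1801.9 and 2267.6, differences of -0.27 and -0.01.

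**Figure D1:**
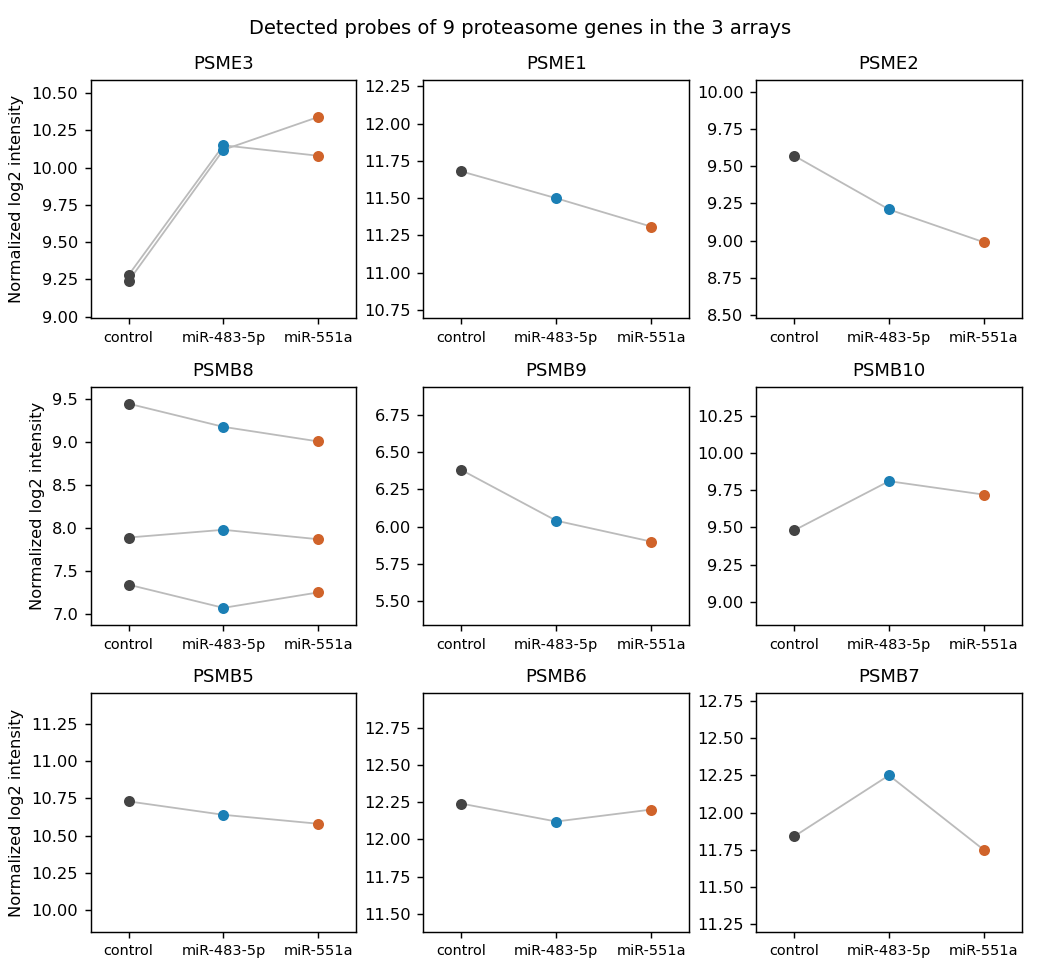
Normalized log2 intensity (vertical axis) of each detected probe of 9 proteasome genes in the control, miR-483-5p and miR-551a arrays (horizontal axis), 1 array per group, with grey lines joining the values of 1 probe and no error bars because there are no replicates. Every panel spans 1.6 log2 units except PSMB8, which spans more, and levels of different probes are not comparable. PSME3 was higher in both overexpressing arrays at both probes, PSME1, PSME2 and PSMB9 were lower, and PSMB7 was higher with miR-483-5p alone.

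The interferon-inducible members lay on the other side of control, except PSMB10. PSME2, the beta subunit of the activator PA28, had intensities of 787.9 in control, 653.7 in miR-483-5p and 595.2 in miR-551a, which gave log2 differences of -0.36 (1.28-fold lower) and -0.58 (1.49-fold lower). PSME1, the alpha subunit, read 3188.5, 2956.4 and 2748.9, with differences of -0.18 and -0.37. Both partners of this activator were thus lowest with miR-551a and highest in control. A further PSME1 probe was detected in none of the arrays.

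PSMB9, which takes the place of PSMB6 in the immunoproteasome, was dim, with intensities of 143.6 in control, 128.7 in miR-483-5p and 124.4 in miR-551a. Its normalized differences were -0.34 and -0.48, and -0.18 and -0.25 without background correction. PSMB8, which takes the place of PSMB5, differed by -0.15 and -0.18 as the mean of 3 detected probes, and these probes did not match. The brightest PSMB8 probe read 727.6, 641.3 and 603.9 (differences of -0.27 and -0.44), another read 291.8, 313.7 and 306.7 (0.09 and -0.02), and the dimmest read 219.9, 196.9 and 219.9 (-0.27 and -0.09). PSMB10, which takes the place of PSMB7, went the other way, with intensities of 743 in control, 953.6 in miR-483-5p and 947.4 in miR-551a and differences of 0.321, just short of the threshold of 0.322 used here, and 0.23.

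As a set, the 5 interferon-inducible genes had a median difference of -0.18 with miR-483-5p and -0.37 with miR-551a, beside medians of -0.006 and -0.005 over all 11151 genes. In the miR-483-5p array 2 of the 5 (PSME2 and PSMB9) and with miR-551a 3 (PSME2, PSMB9 and PSME1) were lower by at least 0.322 on the log2 scale, a threshold that 13.9% and 17.1% of all genes passed downward. The miR-483-5p median was -0.341 when scores over 0.95 counted as detected, and the miR-551a median was -0.233 without a detection filter. A set of 5 genes gives shares in coarse steps, and no member passed 2-fold. Between the overexpressing arrays all 5 were higher with miR-483-5p than with miR-551a, by 0.03 to 0.22 (median 0.13, against 0.001 over all genes); PSME1 and PSMB8 changed sign in this comparison under other settings, reaching -0.02 each.

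The constitutive cutting subunits were measured beside their replacements. PSMB5, the chymotrypsin-like subunit, had intensities of 1664.5 in control, 1651.8 in miR-483-5p and 1694.3 in miR-551a and normalized differences of -0.09 and -0.15. PSMB6, the caspase-like subunit, read 4839.6, 4494.8 and 4884.9, with differences of -0.12 and -0.04. The 3 arrays lay close together for both genes. PSMB7, the trypsin-like subunit, read 3482 in control, 4877.6 in miR-483-5p and 3716.3 in miR-551a. It was 0.40 higher than control (1.32-fold) with miR-483-5p and -0.09 from control with miR-551a, and its difference between the overexpressing arrays, 0.50 (1.41-fold), was the widest of all members in that comparison; 3.18% of all genes were at least as high there. PSMB7 had a single probe, and its sign with miR-551a changed under median scaling with and without background correction (0.02 and 0.05).

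The remaining core genes gave small differences of both signs. The ring subunit PSMB4 read 2801.3 in control, 2538.1 in miR-483-5p and 2465.7 in miR-551a, differences of -0.21 and -0.35, and was the only core gene past 0.322 downward in either comparison with control. PSMB1 differed by -0.07 and -0.20, PSMB2 by 0.18 and 0.10 and PSMB3 by -0.09 and 0.06. In the alpha ring, which gates entry to the barrel, PSMA1 differed by 0.26 and 0.24, PSMA3 by 0.27 and 0.03, PSMA4 by 0.11 and 0.05, PSMA6 by -0.01 and 0.10 and PSMA5 by -0.11 and -0.09. PSMA2 differed by 0.15 and -0.18, and by 0.33 between the overexpressing arrays. Over the 13 core genes the median was -0.008 with miR-483-5p and -0.04 with miR-551a, close to the medians of all genes. The sign of these medians was not stable: across the other settings they ran from -0.033 to 0.139 and from -0.037 to 0.047.

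**Figure D2:**
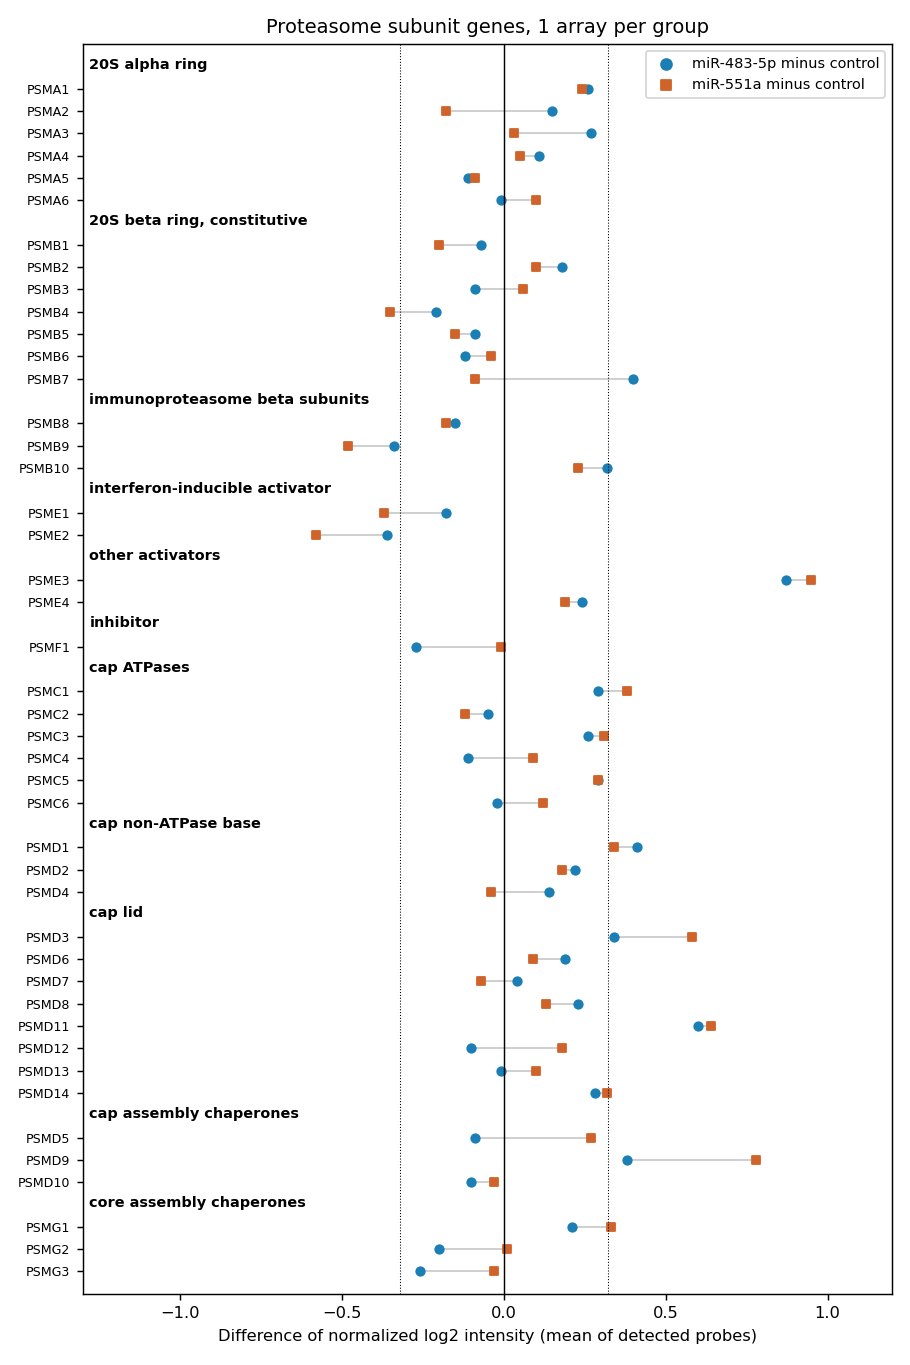
Difference of normalized log2 intensity from control (horizontal axis) for the 44 measured proteasome subunit genes (rows, grouped by role), with circles for miR-483-5p and squares for miR-551a, each the mean of the gene's detected probes from 1 array. Dotted lines mark 0.322 on either side of 0. PSME3 stands alone on the right at 0.87 and 0.95, most cap genes lie right of 0, and PSME2, PSMB9 and PSME1 lie left of it in both arrays.

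Cap genes were mostly above control. Of 20 cap genes, 13 were above control with miR-483-5p and 16 with miR-551a, beside 5488 and 5499 of all 11151 genes. The 20 cap genes had medians of 0.21 and 0.18. Past 0.322, 4 and 6 were higher and 0 lower in each, where 13.9% and 16.7% of all genes passed upward and 13.9% and 17.1% downward. The 6 with miR-551a were PSMC1, PSMD1, PSMD3, PSMD9, PSMD11 and PSMD14. The 4 with miR-483-5p were PSMD1, PSMD3, PSMD9 and PSMD11. PSMD9 and PSMD11 were not detected in control and could enter only by being higher elsewhere. PSMD9, an assembly chaperone of the cap base, read 102.4 in control, 117.7 in miR-483-5p and 136.8 in miR-551a, at least 1.09-fold and 1.44-fold higher after background correction. PSMD11, a lid subunit, read 99.1, 121.6 and 124.4, at least 1.17-fold and 1.21-fold higher on the same scale. These bounds hold for background-corrected values only; without that correction PSMD9 differed by 0.16 and 0.37 and PSMD11 by 0.26 and 0.28. With both at these bounds the cap medians were 0.17 and 0.18, and 2 and 5 cap genes were higher by 0.322. Among the 18 cap genes with a probe detected in all 3 arrays the medians were 0.17 and 0.15 and 2 (11.1%) and 4 (22.2%) were higher, beside 12.4% and 15.0% of all genes so detected.

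By role, the scaffold subunit PSMD1 read 2103.1 in control, 2906.1 in miR-483-5p and 2921.3 in miR-551a, differences of 0.41 and 0.34. Both overexpressing arrays were above control by a like amount. The lid subunit PSMD3, with a single dim probe, read 183.5, 219.2 and 254.5, differences of 0.34 and 0.58, and was highest with miR-551a. Without background correction PSMD3 differed by 0.23 and 0.41, the first short of 0.322. The deubiquitinase PSMD14, which removes the ubiquitin chain, read 2756.6, 3502.9 and 3783.7, differences of 0.28 and 0.322, the second at the threshold. Among the ATPases PSMC1 was higher at both probes, with intensities of 5057.5 in control, 5840.9 in miR-483-5p and 7085.9 in miR-551a at the brighter and a mean difference of 0.29 and 0.38. PSMC3 differed by 0.26 and 0.31 and PSMC5 by 0.29 in each. PSMC2 (-0.05 and -0.12), PSMC4 (-0.11 and 0.09) and PSMC6 (-0.02 and 0.12) were near control. With 1 array per group, the gaps between these ATPase genes have no error. Of the ubiquitin-binding and scaffold subunits of the base, PSMD2 differed by 0.22 and 0.18 and the ubiquitin receptor PSMD4 by 0.14 and -0.04. In the lid PSMD6 (0.19 and 0.09), PSMD7 (0.04 and -0.07), PSMD8 (0.23 and 0.13), PSMD12 (-0.10 and 0.18) and PSMD13 (-0.01 and 0.10) differed by less than 0.322.

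The assembly chaperones did not follow a common direction. PSMD5 differed by -0.09 and 0.27 and PSMD10, also known as gankyrin, by -0.10 and -0.03. PSMG1, a chaperone of the alpha ring, read 2901.1 in control, 3537.6 in miR-483-5p and 3883.3 in miR-551a at its brighter probe, with mean differences of 0.21 and 0.33. Its partner PSMG2 differed by -0.20 and 0.01. PSMG3 was dim, with intensities of 183.8, 167.1 and 188.8 and differences of -0.26 and -0.03.

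Core and cap were then set side by side in both comparisons with control, which share that control. The core median minus the cap median was -0.216 with miR-483-5p and -0.215 with miR-551a. It was -0.087 and -0.315 with the brightest probe of each gene, and -0.216 and -0.119 without a detection filter. The cap medians used here include fitted values of PSMD9 and PSMD11, which were not detected in control. With both at their bounds the cap median was 0.167 and not 0.208 with miR-483-5p, and stayed at 0.178 with miR-551a. The interferon-inducible median minus the core median was -0.169 and -0.332, and it reached -0.411 for miR-483-5p with the brightest probes and -0.215 for miR-551a without background correction. Between the overexpressing arrays, where no control enters, core minus cap was 0.11 and interferon-inducible minus core 0.07. The latter was 0.03 without background correction and turned to -0.004 without a detection filter. None of these values has an error, so none can be called larger than the spread between cultures.

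**Figure D3:**
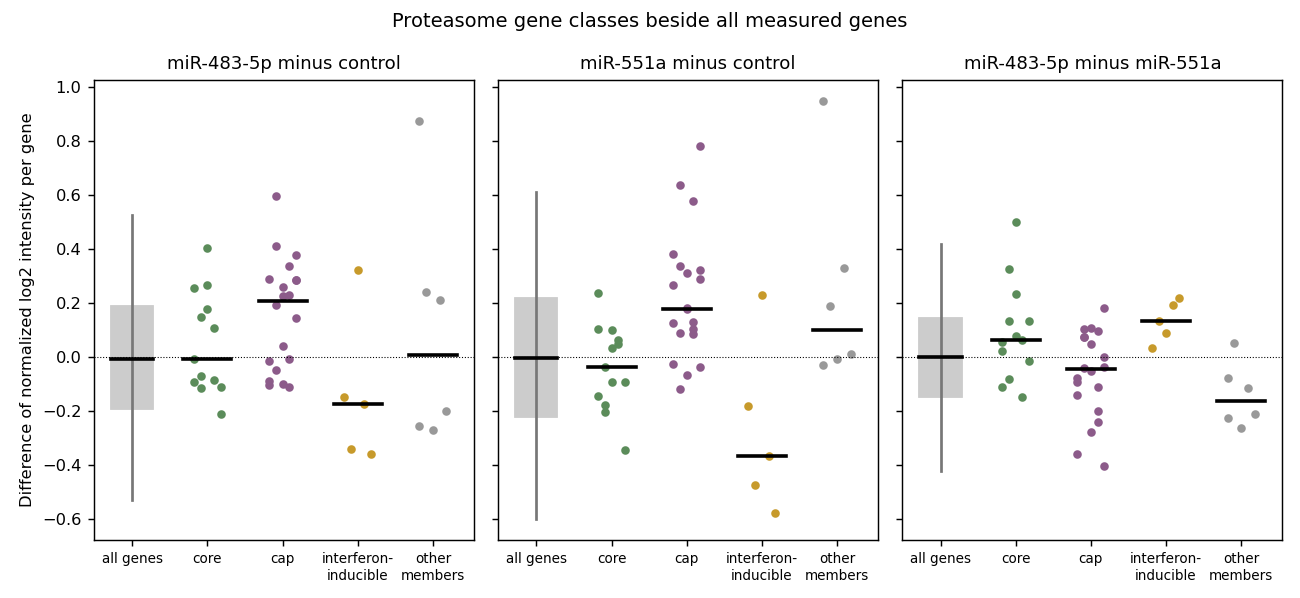
Difference of normalized log2 intensity per gene (vertical axis) for core, cap, interferon-inducible and other members in the 3 comparisons (panels), beside all 11151 measured genes. For all genes the box spans the 25th to 75th percentile, the thin line the 5th to 95th percentile and the bar the median; for the classes each point is a gene and the bar its median. Cap medians sit at 0.21 and 0.18 above control (0.17 and 0.18 with PSMD9 and PSMD11 at their bounds). Interferon-inducible medians sit at -0.18 and -0.37, while most points lie within the thin line for all genes.

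Over all 44 members the median was 0.07 with miR-483-5p and 0.09 with miR-551a, and 0.01 between the overexpressing arrays. Past 0.322, 6 members were higher and 2 lower with miR-483-5p, and 8 higher and 4 lower with miR-551a. As shares these are 13.6% and 4.5%, and 18.2% and 9.1%, beside 13.9% in each direction and 16.7% and 17.1% of all genes, so the upward shares are near the background. With PSMD9 and PSMD11 at their bounds 4 and 7 members were higher. When no background was removed, 3 members were higher and 1 lower by as much with miR-483-5p, and 5 were higher and 3 lower with miR-551a. No member passed 2-fold as a gene in any comparison, against 0.529% and 0.924% of all genes upward and 0.619% and 0.96% downward. Between the overexpressing arrays PSMB7 and PSMA2 were higher and PSMD9 (-0.40) and PSMD5 (-0.36) lower with miR-483-5p by at least 0.322, where 8.78% and 9.44% of all genes passed.

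Probes of 1 gene did not always match, which limits what a difference of this size shows. Of 15 genes with more than 1 detected probe, 8 had probes of a single sign with miR-483-5p and 8 with miR-551a, and the median gap between probes of a gene was 0.19 and 0.20. The widest gap was in PSMD12 for both, where probes differed by -0.50 and 0.30 with miR-483-5p and by -0.18 and 0.54 with miR-551a. PSMC4 had a probe at -0.42 and others at 0.07 and 0.01 with miR-483-5p. PSME3, PSMC1, PSMG1, PSMA1, PSMA3 and PSMD6 had detected probes that were all above control in both arrays.

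Other genes of the pathway were read beside the subunits. NFE2L1, the transcription factor that raises proteasome genes when proteasome activity falls, read 5231 in control, 3572.1 in miR-483-5p and 4467.4 in miR-551a, differences of -0.59 and -0.32. Its partner MAFG was higher, at 0.65 and 0.47, but its detected probes were dim, at 182.4 and 148.2 in control. The related factor NFE2L2 differed by 0.06 and -0.05. MAFF differed by 0.00 and -0.05, and NGLY1, which activates NFE2L1 protein by removing its sugars, by -0.13 and -0.19. Of the 10 cofactors and assembly genes measured, 0 passed 0.322 in either direction. Of all genes, 13.9% passed in each direction with miR-483-5p, and 16.7% upward and 17.1% downward with miR-551a. The 10 genes had medians of 0.11 and 0.12, beside -0.006 and -0.005 over all genes. The assembly factor POMP was at 0.25 and 0.19, and the cap deubiquitinases UCHL5 at 0.24 and 0.31 and USP14 at 0.15 and 0.24. The 5 ubiquitin and E1 genes had medians of 0.00 and -0.02.

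Among 9 genes of shuttling and unfolding, 2 were higher and 0 lower by that much with miR-483-5p, and 3 higher and 1 lower with miR-551a, where 13.9% and 16.7% of all genes passed upward and 13.9% and 17.1% downward. A list of 9 genes gives coarse shares. RAD23B, which carries ubiquitinated proteins to the cap, read 426.9 in control, 589.2 in miR-483-5p and 782.4 in miR-551a, differences of 0.49 and 0.85. UFD1, listed as UFD1L and a cofactor of the unfoldase VCP, was higher by 0.53 and 0.42, whereas VCP itself differed by -0.26 and -0.27. The UFD1L probes were dim, at 152.9 and 122.6 in control. They differed by 0.32 and 0.75 with miR-483-5p and by 0.58 and 0.25 with miR-551a. SQSTM1, a ubiquitin receptor of autophagy, read 1377.1, 1524.2 and 985, differences of 0.09 and -0.65, and stood 0.75 higher with miR-483-5p than with miR-551a.

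Of 9 measured antigen presentation genes, 1 was lower and 0 higher by that much with miR-483-5p, and 6 lower and 0 higher with miR-551a, with medians of -0.21 and -0.42. With genes not detected in an array at their bounds, the lower counts were 0 and 5 and the medians -0.13 and -0.33. The background for lower genes was 13.9% and 17.1%. TAP1, the peptide transporter whose gene lies head to head with PSMB9, read 1023.4 in control, 884.2 in miR-483-5p and 766.6 in miR-551a, differences of -0.30 and -0.61. B2M, the light chain of MHC class I, differed by -0.21 and -0.42, TAPBP by 0.04 and -0.43 and HLA-E by 0.05 and -0.48. HLA-C was detected in control only, with intensities of 120.0, 114.8 and 100.7, and was at least 1.09-fold and 1.21-fold lower after background correction. ERAP2, a peptide trimming enzyme not detected with miR-483-5p, was at least 1.05-fold lower there by the same measure (fitted difference -1.15) and differed by 0.02 with miR-551a. The interferon-response factor IRF1 differed by -0.12 and -0.33, while TAP2, the partner of TAP1 in the transporter, differed by 0.00 and 0.22. In these arrays the antigen presentation median lay on the same side of control as that of the interferon-inducible proteasome genes. Both lists rest on the same control array, so they are not separate observations. Of the 9 antigen presentation genes, 3 were above control with miR-483-5p and 2 with miR-551a.

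**Figure D4:**
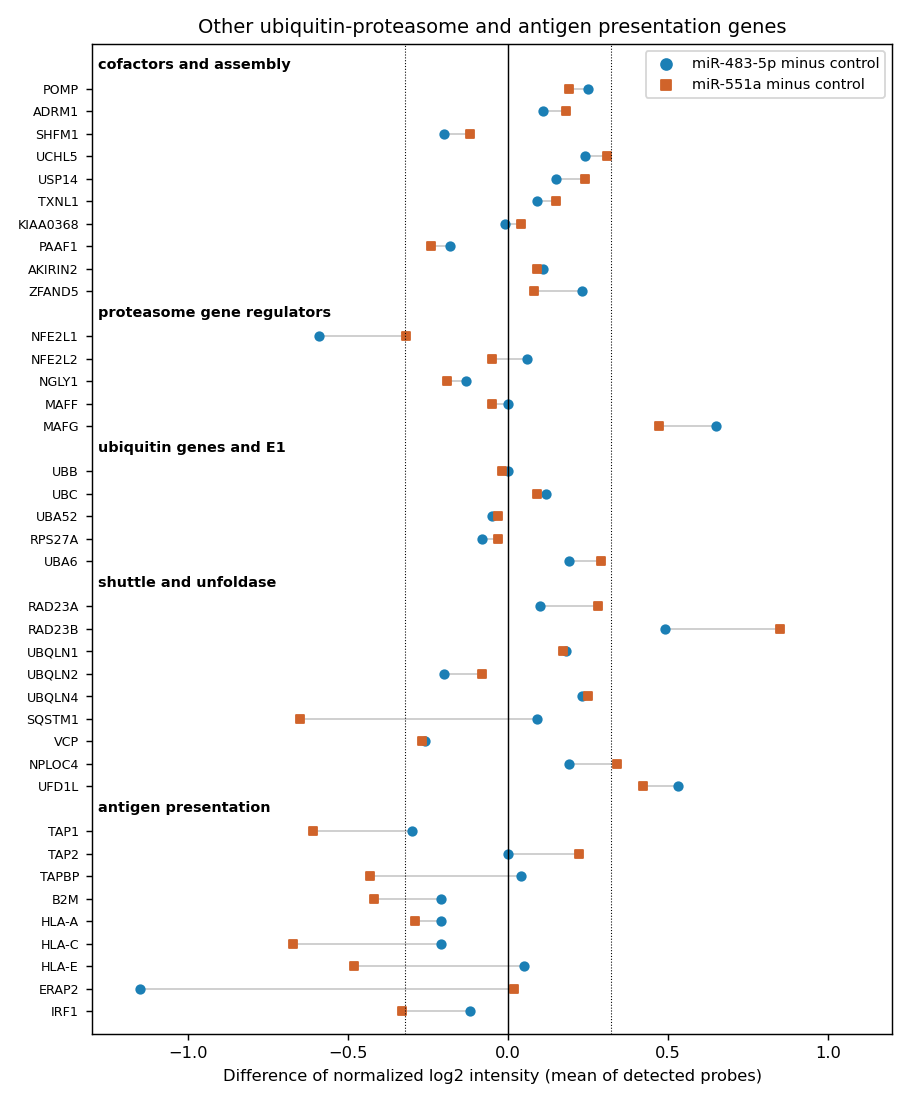
Difference of normalized log2 intensity from control (horizontal axis) for 38 other genes of ubiquitin-dependent degradation and antigen presentation (rows, grouped by role), with circles for miR-483-5p and squares for miR-551a, 1 array each; dotted lines mark 0.322 on either side of 0. TAP1, B2M and HLA-C lie left of 0 in both arrays, RAD23B, MAFG and UFD1L lie right of it, and ERAP2 at -1.15 was not detected with miR-483-5p.

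The promoters were then compared by class. Of the 44 measured members, 39 had a promoter in the RefSeq table, in 48 windows of 300 bases because 8 genes had more than 1 start. The interferon-stimulated element stood in 4 of 6 windows of the interferon-inducible genes (PSMB8, PSMB10, PSME1 and PSME2), in 2 of 14 core windows (PSMA4 and PSMB4) and in 0 of 21 cap windows, beside 3.57% of all 35116 windows. PSMB10 held the same element as PSME2, shown above, and differed from control in the opposite direction. PSMB9, lower than control in both arrays, held no interferon-stimulated element. A link between this element and the differences was not tested. The antioxidant element stood in 7 of 21 cap windows (33.3%) and in 2 of 14 core windows (14.3%), beside 13.3% of all windows. It stood in 3 of 6 interferon-inducible windows (PSMB9, PSME1 and PSME2) and in 3 of 7 windows of the other members (42.9%). Of the cap genes holding it, PSMC5, PSMD1, PSMD3 and PSMD9 were above control in both arrays. The others, PSMC4, PSMD5 and PSMD12, were below control with miR-483-5p and above it with miR-551a. Of the cap genes without it, PSMC1, PSMC3, PSMD2, PSMD6, PSMD8, PSMD11 and PSMD14 were also above control in both arrays. The remaining genes without it, PSMC2, PSMC6, PSMD7, PSMD10 and PSMD13, were below control in at least 1 array. PSMD9 and PSMD11 were not detected in control and could enter only by being higher elsewhere, so their direction says nothing about either element group. A link between the antioxidant element and the differences was not tested. CCAAT stood in 9 of 21 cap and 7 of 14 core windows and in 34.6% of all. The gamma-activated site stood in 3 cap, 2 core and 1 interferon-inducible window, and in 7.66% of all. These are matches of letters and not measured binding.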

How the data were processed

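The authors deposited non-normalized intensity values for 3 Illumina bead arrays, 1 each for control, miR-483-5p and miR-551a cells, with a detection score beside each, a fraction from 0 to 1 per the file headers. Scores lie near 1 for bright probes, so a score over 0.99 was taken as detected. Scanner software is not stated by the labels. A normalized table of intensity was deposited too. Its miR-483 column is 0.934 times the non-normalized miR-551a column at every probe (against its own array the ratio ran from 0.519 to 2.49), so that table was used for no value.

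The neqc function of limma 3.58.1 (R 4.3.3) gave the values (background from the detection scores, offset 16, quantile normalization, log2). A gene is the mean of its probes detected in at least 1 array, and probes without a gene symbol were left out. A probe not detected in control has only a bound, its level over the lowest detected level of that array. No test is possible with single arrays; differences are described at a log2 difference of 0.322 and at 2-fold, beside the share of all genes past the same threshold. Intensities in the text are before background correction. The number of arrays limits the precision, and probe sequences were not used here. Every measured member is named; values in all arrays are given for the interferon-inducible genes, PSMB5, PSMB6, PSMB7 and the members furthest from control, and of the other pathway genes for the furthest. UFD1, SEM1 and ECPAS are listed under older symbols. Of the lists drawn up, 1 antigen presentation gene and 1 leukocyte marker are not reported here and enter no count or median of their list. Normalization was tested on simulated data, with changes placed only in probes brighter than the median of those detected in control. The simulation did not cover changes in dim probes. The members and lists were chosen with earlier results of these data known. Alternatives were 9 planned settings of background, scaling, detection and probe choice, and 1 added after seeing the data.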

Additional observations from a re-analysis of the deposited data

How the results depend on the processing

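No paired analysis was possible because each group had 1 array. With no spread between replicates, a median was counted as unchanged within 0.1 log2 and a count within 1.5 times. Cap medians above control, interferon-inducible medians below control and core below cap kept their sign in every setting run for both overexpressing arrays, and PSME3 ranged from 0.811 to 0.915 and from 0.884 to 1.10. Median centring and the added cap without PSMD5, PSMD9 and PSMD10 moved none of these results.

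Counts past 0.322 moved most. For miR-483-5p against control, 3 were higher and 1 lower without background correction or with normexp, 1 lower with background-corrected median scaling, and 3 higher and 0 lower with uncorrected median scaling. For miR-551a, 5 were higher without background correction, and 2 and 1 lower under corrected and uncorrected median scaling. PSME3 alone made 1 member 2-fold higher under corrected median scaling and with the brightest probe. Between the overexpressing arrays, 1 was higher and 0 lower without background correction or with normexp, 1 higher under both median scalings and 1 lower among probes detected in all 3 arrays.

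The interferon-inducible median for miR-551a was -0.251 without background correction (-0.215 minus core), -0.254 under uncorrected median scaling and -0.233 without a detection filter. For miR-483-5p it was -0.341 with scores over 0.95 (-0.39 minus core), where a dim PSME1 probe enters. With the brightest probe the miR-483-5p core median was 0.139, core minus cap -0.087 and interferon-inducible minus core -0.411. In the main setting the miR-483-5p core median of -0.008 was the value of PSMA6. Its probes were at -0.16 and, for the brighter, 0.14. Causes of the shifts in this paragraph were not tested.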
